A study of Mus musculus with 9 samples.

Results

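The genes followed here were chosen by name for their place in the vitamin A pathway, with earlier results of these data known. They are Rbp4, Stra6, Dhrs3, Aldh1a1, Aldh1a2, Aldh1a3, Crabp1, Crabp2 and Cyp26b1. Each symbol matched 1 of the 46078 genes in the count table, so the set holds 9 genes. They were measured by RNA-seq in whole ovaries of mice with (WT, n = 5) and without (ERβKO, n = 4) estrogen receptor β. ERβKO mice carry a germline deletion of exon 3 of Esr2, made with a Rosa26-Cre deleter line and therefore present in every cell of the animal. Both genotypes were of the C57BL/6J strain and labelled Untreated, although the treatment text shared by all samples describes a high-fat diet with injections of the ERβ ligand DPN. For the mice as a whole the methods give ages of 4 to 20 weeks, and neither the age nor the cycle stage of a single ovary is stated in the sources used here.

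Vitamin A travels in blood as retinol bound to RBP4, is taken up by cells through STRA6 and is oxidised to retinaldehyde, a step that DHRS3 runs in reverse. The ALDH1A enzymes then oxidise retinaldehyde to retinoic acid, CRABP1 and CRABP2 bind retinoic acid in the cytoplasm, and CYP26 enzymes such as CYP26B1 degrade it. Retinoic acid acts through nuclear receptors of the RAR and RXR families, and in the ovary it is best known for its part in starting meiosis in fetal germ cells and for effects on follicular cells.

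Aldh1a1, which had the highest level of the 3 retinaldehyde dehydrogenase genes, was 2.10 times higher in ERβKO ovaries on mean FPKM (a level scaled to transcript length and to library size). Stra6, the retinol uptake gene, was lower in each ERβKO ovary than in any WT ovary, but missed the threshold in the main test. Rbp4 was above the WT range in 3 of the 4 ERβKO ovaries and below it in the other. The remaining 6 genes had overlapping ranges in the genotypes. A gene was called when its adjusted p was under 0.05 in edgeR's quasi-likelihood test (Benjamini-Hochberg), its absolute log2 fold change was over 0.4 and its mean was over 1 FPKM in a genotype. All 9 genes passed the filter on low counts, and 1 of them, Aldh1a1, was called, against 1.72% of the 16722 genes tested (0.915% higher and 0.801% lower in ERβKO). DESeq2 was the test that the study used. With it, 3 of the 9 were called (Aldh1a1, Rbp4 and Stra6), against a background of 4.6% of genes (2.16% higher and 2.45% lower). The FPKM ranges of the genotypes were separate for 2 of the 9 members (Aldh1a1 and Stra6), against 7.61% of all genes tested (4.29% with ERβKO above and 3.31% with ERβKO below). The median log2 fold change of the 9 genes was 0.21, with 6 fitted above 0 and 3 below, beside a median of -0.00089 over all genes tested. Since the 9 genes were chosen with earlier results known, their counts beside the background are a description only.

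**Figure D1:**
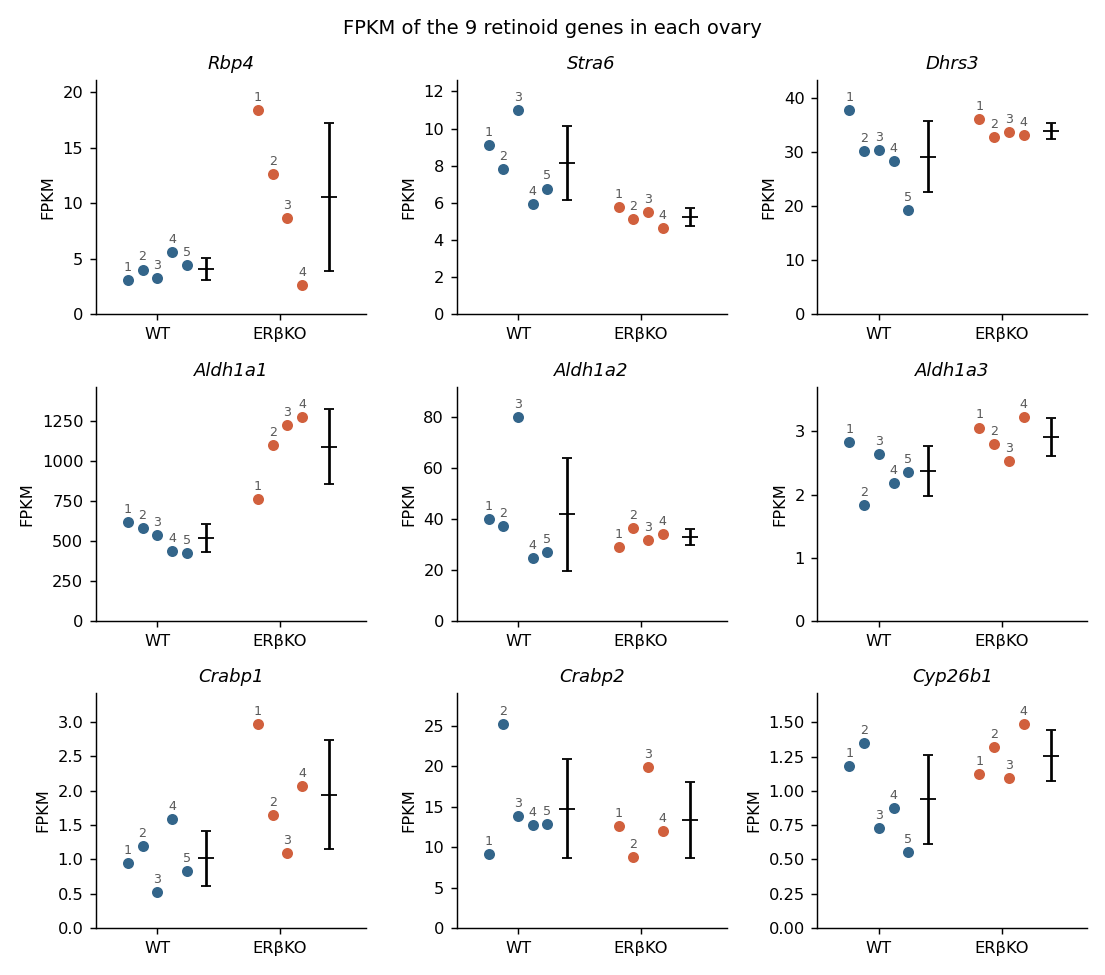
Level of each of the 9 genes in FPKM (vertical axes, starting at 0) in the 5 WT ovaries (blue) and 4 ERβKO ovaries (orange); numbers are replicates, the cross bar is the mean and the error bar 1 SD. The ranges of the genotypes are separate for Aldh1a1 and Stra6 and overlap for the other 7 genes.

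The 9 ovaries had between 12353740 and 18717510 counts in genes. Esr2 itself did not separate the genotypes in the whole-gene count, with 16.7 ± 4.5 FPKM (WT) and 16.1 ± 5.5 FPKM (ERβKO) (n = 5 and 4, ± SD), so the count over all exons was no check of the labels. WT replicate 2 scored 9.43 on the leading principal component of log2 CPM (counts scaled to library size), a position between those of the remaining WT ovaries and of the ERβKO ovaries. Markers of oviduct epithelium were high in each ovary, with Ovgp1 at a mean of 1731 FPKM, and the summed level of the 6 oviduct markers was 1396 to 2534 FPKM in WT and 1627 to 2089 FPKM in ERβKO. Of these 6, 5 were fitted higher in ERβKO (median log2 fold change 0.32), with 2 at an unadjusted p under 0.05 and none called with edgeR or DESeq2. Over all 16722 genes tested with edgeR, 3315 had an unadjusted p under 0.05. Markers of luteal cells summed to 2775 to 6483 FPKM in WT and 2538 to 3782 FPKM in ERβKO ovaries, with 8 of 9 fitted lower, none called with edgeR (5 with an unadjusted p under 0.05) and 3 called with DESeq2. Since these are bulk samples, fewer cells of a type and less RNA per cell cannot be told apart for any gene below.

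Reference sequence of the 3 genes that DESeq2 called is shown so that their promoters can be read beside the values. RefSeq gives 2 transcription starts for Aldh1a1, 2 for Rbp4 and 4 for Stra6, and only the one nearest to the gene start in the files is shown. The 250 bases before that start (GRCm38.p6, read 5′ to 3′ on the gene's own strand) lie at chr19:20601718-20601967 on the plus strand for Aldh1a1, chr19:38125322-38125571 on the minus strand for Rbp4 and chr9:58128838-58129087 on the plus strand for Stra6. Capitals mark the CCAAT box, which reads ATTGG where it lies on the opposite strand, and the last capitals of Aldh1a1 open a match that runs over the start.
Aldh1a1: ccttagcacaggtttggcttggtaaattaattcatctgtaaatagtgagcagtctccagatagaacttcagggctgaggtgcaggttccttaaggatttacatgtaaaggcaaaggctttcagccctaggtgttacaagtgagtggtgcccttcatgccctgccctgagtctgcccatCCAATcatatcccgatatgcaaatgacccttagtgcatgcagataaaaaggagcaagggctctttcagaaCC
Rbp4: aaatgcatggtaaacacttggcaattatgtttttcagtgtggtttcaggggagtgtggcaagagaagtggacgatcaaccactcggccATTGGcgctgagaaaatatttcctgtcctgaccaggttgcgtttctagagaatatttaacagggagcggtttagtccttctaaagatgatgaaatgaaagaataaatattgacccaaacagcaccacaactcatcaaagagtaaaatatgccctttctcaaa
Stra6: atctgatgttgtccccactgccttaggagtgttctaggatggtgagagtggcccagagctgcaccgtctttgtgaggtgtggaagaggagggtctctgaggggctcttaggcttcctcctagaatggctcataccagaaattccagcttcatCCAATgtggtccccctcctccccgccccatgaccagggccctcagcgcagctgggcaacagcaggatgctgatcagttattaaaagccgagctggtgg
Windows of 300 bases, 250 before and 50 after the start, were found for 7 of the 9 members, and none for Aldh1a3 and Crabp2. The RefSeq start used for Stra6 lies 65300 bases inside the gene as the files bound it, and is the one nearest to that bound. Searched on both strands, no window of a member held the nuclear receptor half-site AGGTCA (in 16.3% of 32851 mouse promoter windows), the longer AAGGTCA that contains it (4.72%) or the full estrogen response element, GGTCA and TGACC spaced by 3 bases (0.07%). A direct repeat of AGGTCA spaced by 2 or by 5 bases, the spacings best known for RAR and RXR, was also not found, and each occurs in 0.00913% of windows. In the window nearest to each gene start in the files, the CCAAT box (37.4% of windows) was matched 72 and 2 bases before the start of Aldh1a1, 36 before that of Aldh1a2, 162 before that of Rbp4 and 98 before that of Stra6, and TATAAA (13.6%) 139 bases before that of Cyp26b1. At other RefSeq starts, TATAAA was matched 28 bases before a second Rbp4 start, and CCAAT 191 and 89 bases before one further Dhrs3 start and 149 before another. These are matches of letters in short windows and say nothing of binding.

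Rbp4 (ENSMUSG00000024990, chromosome 19 of GRCm38 from 38116620 to 38125321) encodes the serum carrier of retinol, made mainly by liver and by fat cells. Its levels were 3.06, 4.04, 3.27, 5.63 and 4.41 FPKM in WT replicates 1 to 5. In ERβKO replicates 1 to 4 they were 18.4, 12.6, 8.69 and 2.61 FPKM. ERβKO replicates 1 to 3 thus lay above every WT ovary and ERβKO replicate 4 lay below every WT ovary. The means were 4.08 ± 1.0 and 10.6 ± 6.6 FPKM (n = 5 and 4, ± SD), which gave a log2 fold change of 1.22 (standard error, SE, 0.43). The adjusted p was 0.152 in edgeR's quasi-likelihood test (Benjamini-Hochberg) and 0.0457 in DESeq2, and the FPKM difference had p = 0.0952 in a two-sided exact permutation test (3 of 4 ERβKO ovaries above the WT mean). DESeq2 was the 1 of 22 alternative fits that called Rbp4. Without ERβKO replicate 1 the log2 fold change was 0.66, and without ERβKO replicate 4 it was 1.53.

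Rbp4 was set beside the markers of fat cells ovary by ovary. The 8 adipocyte markers summed to 174, 174, 269, 339 and 184 FPKM in WT replicates 1 to 5 and to 1289, 420, 449 and 191 FPKM in ERβKO replicates 1 to 4. ERβKO replicate 1, with the most Rbp4, had the most adipocyte marker RNA, and ERβKO replicate 4, with the least Rbp4, had the least of its genotype. All 8 markers were fitted higher in ERβKO ovaries (median log2 fold change 1.27). None was called with edgeR, where 7 had an unadjusted p under 0.05, and DESeq2 called 3. No marker of this list was at 0 in all ovaries. The most abundant was Car3, at a mean of 215 FPKM. After the mean of each genotype was subtracted, the log2 CPM of Rbp4 and the mean of the adipocyte markers had a Pearson correlation of 0.92 and a Spearman correlation of 0.62 over the 9 ovaries, and 0.50 (Pearson) without the 2 ovaries farthest from the median of the markers. For the oviduct markers the Spearman correlation with Rbp4 was 0.72 (Pearson 0.38). For the granulosa markers the Pearson correlation was -0.18, and 0.78 without their 2 farthest ovaries. With the adipocyte marker level as a covariate, the log2 fold change of Rbp4 was 0.01 (adjusted p = 0.992 by edgeR, Benjamini-Hochberg adjusted). Of the 9431 genes compared, the 3 whose pattern was most like that of Rbp4, with genotype means removed, were Mgll (r = 0.98), Lpl (r = 0.96) and Scd1 (r = 0.96), which encode a monoglyceride lipase, lipoprotein lipase and stearoyl-CoA desaturase. Without the 2 ovaries farthest from the median of Rbp4, r was 0.89, 0.76 and 0.75. Picking the closest of so many genes makes high values certain to be found. Whether fat attached to the ovary contributed to Rbp4 was not tested on tissue.

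**Figure D2:**
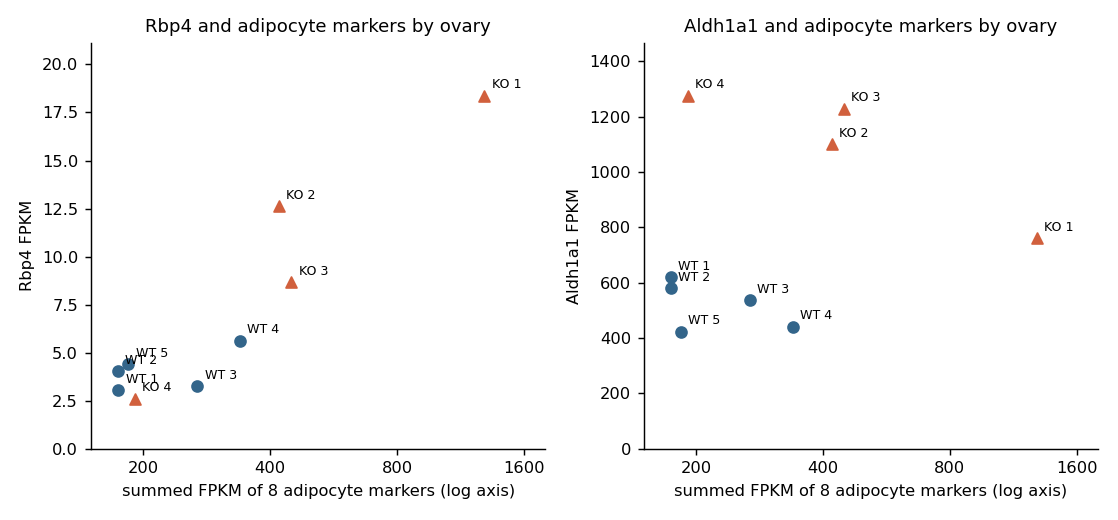
Rbp4 (left) and Aldh1a1 (right) in FPKM against the summed FPKM of 8 adipocyte markers (horizontal log axis), 1 point per ovary, with circles for WT and triangles for ERβKO (KO). ERβKO replicate 1 has the most marker RNA (1289 FPKM) and the most Rbp4 (18.4 FPKM) of all ovaries but the least Aldh1a1 of its genotype (761 FPKM).

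Stra6 (ENSMUSG00000032327, chromosome 9 from 58063788 to 58153996) encodes the membrane receptor that takes retinol up from RBP4. The WT ovaries had 9.11, 7.84, 11.0, 5.96 and 6.77 FPKM and the ERβKO ovaries 5.75, 5.12, 5.50 and 4.64 FPKM, in replicate order. The lowest WT ovary, replicate 4, exceeded the highest ERβKO ovary, replicate 1, by a narrow margin, and the WT ovaries were the more spread (coefficient of variation 24.4% against 9.22%). Mean levels were 8.13 ± 2.0 and 5.25 ± 0.48 FPKM (n = 5 and 4, ± SD). This gave a log2 fold change of -0.68 (SE 0.16), lower in 4 of 4 ERβKO ovaries, where edgeR's quasi-likelihood test (Benjamini-Hochberg) put the adjusted p at 0.0573 and DESeq2 at 0.00320. The two-sided exact permutation test of the FPKM gave p = 0.0159, the smallest that 5 and 4 ovaries allow. Stra6 was called in 4 of 22 alternative fits, and its log2 fold change lay between -0.76 and -0.54 when single ovaries were left out. It was called without WT replicate 2 (adjusted p = 0.0389, edgeR), a fit that called 919 genes in all, against 287 in the main fit. WT replicates 4 and 5, the libraries with numbers above 200, had the lowest WT levels, and among the other libraries the log2 fold change was -0.84 (adjusted p = 0.0567 by edgeR, Benjamini-Hochberg adjusted). After genotype means were removed, Stra6 and the 5 macrophage markers had a Pearson correlation of 0.66 over the 9 ovaries and 0.49 without the 2 farthest. This was the highest of the 12 marker lists compared.

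Dhrs3 (ENSMUSG00000066026, chromosome 4 from 144892827 to 144928209) encodes the reductase that returns retinaldehyde to retinol. Its levels were 37.7, 30.1, 30.3, 28.3 and 19.3 FPKM in the WT ovaries and 36.1, 32.8, 33.7 and 33.1 FPKM in the ERβKO ovaries, in replicate order. The ERβKO ovaries lay close together inside the wider WT range, whose ends were replicates 5 and 1. For Dhrs3 the fitted log2 fold change was 0.18 (SE 0.12, adjusted p = 0.444 by edgeR, Benjamini-Hochberg adjusted), with a 95% interval from -0.06 to 0.41.

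Aldh1a1 (ENSMUSG00000053279, chromosome 19 from 20601961 to 20643462) encodes a retinaldehyde dehydrogenase that also oxidises other aldehydes. It had by far the highest level of the 9 genes in each ovary. The WT ovaries held 620, 580, 538, 441 and 424 FPKM, in replicate order. The ERβKO ovaries held 761, 1101, 1229 and 1276 FPKM. No WT ovary reached the level of any ERβKO ovary, with ERβKO replicate 1 nearest to the WT range. Aldh1a1 rose from 521 ± 86 FPKM in WT to 1092 ± 233 FPKM in ERβKO ovaries (n = 5 and 4, ± SD), a log2 fold change of 1.05 (SE 0.16). The adjusted p was 0.0139 in edgeR's quasi-likelihood test (Benjamini-Hochberg) and 6.74e-07 in DESeq2, and the two-sided exact permutation test gave p = 0.0159 (higher in 4 of 4 ERβKO ovaries). It was called in 15 of 22 alternative fits, where its adjusted p ranged between 6.74e-07 and 0.263, with log2 fold changes from 0.97 to 1.19 when single ovaries were left out. The call was lost without ERβKO replicate 2 (adjusted p = 0.0528, edgeR) and without ERβKO replicate 4 (adjusted p = 0.0520).

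Aldh1a1 was also set beside the library numbers and the marker lists. WT replicates 4 and 5, whose library numbers are above 200, had its lowest levels, and no ERβKO library has such a number. Among the libraries numbered below 200 the log2 fold change was 0.91 (adjusted p = 0.0915 by edgeR, Benjamini-Hochberg adjusted). With theca marker level as a covariate it was 0.80 (adjusted p = 0.263), with luteal marker level 1.21 (adjusted p = 0.0530) and with adipocyte marker level 1.32 (adjusted p = 0.00863). The 6 theca markers summed to 65.0 to 175 FPKM in WT and to 105.8 to 516 FPKM in ERβKO ovaries, Cyp17a1 alone ranging from 1.82 to 472 FPKM. Among the 5 that could be tested, 4 were fitted higher in ERβKO, with a median log2 fold change of 0.05. Only Cyp17a1 had an unadjusted p under 0.05 in edgeR, and none was called with edgeR or DESeq2. Insl3, a defining theca marker, was at most 1.82 FPKM in any ovary. Its counts summed to 4 over the WT and 5 over the ERβKO ovaries, against mean levels of 0.64 and 0.019 FPKM. Counts and FPKM thus disagree, and the level of Insl3 is uncertain. Of the 10 granulosa markers 9 were fitted higher in ERβKO (median log2 fold change 0.53). With edgeR 1 was called and 4 had an unadjusted p under 0.05, and DESeq2 called 4. The granulosa markers summed to 552 to 685 FPKM in WT and 679 to 946 FPKM in ERβKO ovaries. With genotype means removed, Aldh1a1 had Pearson correlations of 0.50 with the theca markers and 0.45 with the luteal markers over the 9 ovaries. Those with the granulosa and adipocyte markers were 0.39 and -0.74. Without the 2 farthest ovaries the values were, in the same order, 0.37, 0.66, -0.42 and -0.31. Of all 12 marker lists, the highest positive correlation was with the stroma markers (0.56, and 0.65 without their 2 farthest ovaries). The Sertoli markers came next (0.51 and 0.12). Which cells held the Aldh1a1 RNA was not tested. Within genotypes the genes most like Aldh1a1 over the 9 ovaries were Serpina3g (r = 0.97), Tfe3 (r = 0.95) and Golga2 (r = 0.93). They were picked as the closest of 9431 genes, which makes high values certain. The correlation of Aldh1a1 with Rbp4 was -0.78.

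**Figure D3:**
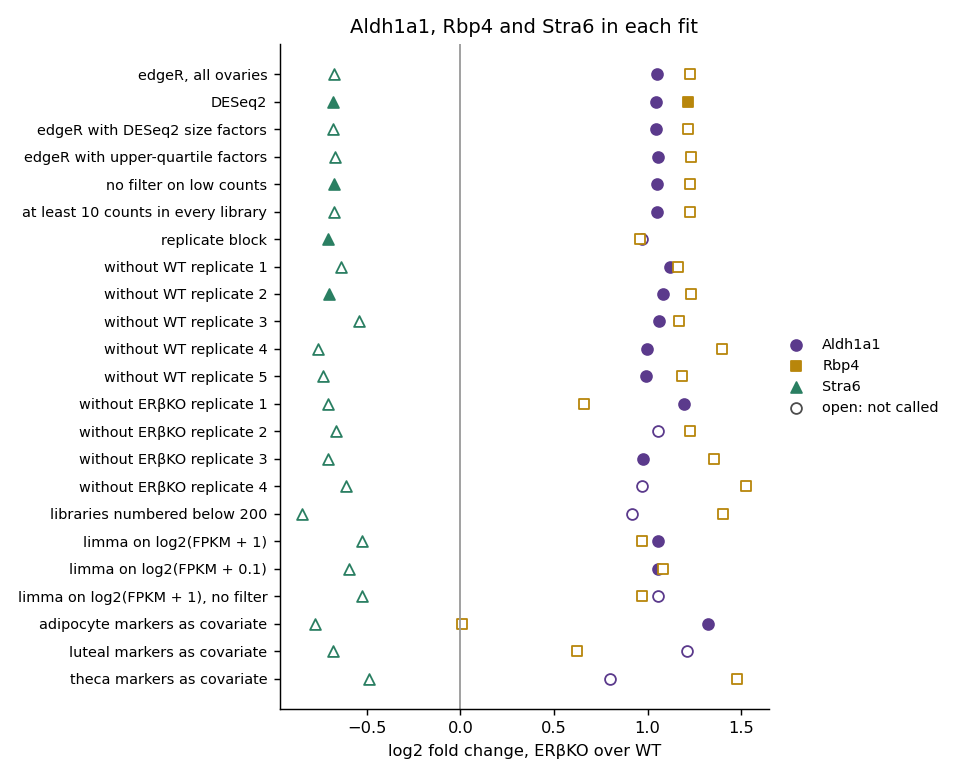
Log2 fold change of Aldh1a1 (circles), Rbp4 (squares) and Stra6 (triangles), ERβKO over WT (horizontal axis), in the main edgeR fit (top line) and in 22 alternative fits (1 line each), with filled symbols where the gene was called and open symbols where it was not. Aldh1a1 stays between 0.80 and 1.32 and Stra6 below 0 in every fit, while Rbp4 is at 0.01 with the adipocyte marker level as a covariate.

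Aldh1a7, a rodent copy of Aldh1a1, was called in the same direction at a much lower level. It had 3.86, 3.46, 2.86, 4.81 and 5.00 FPKM (WT) and 8.52, 7.60, 6.51 and 6.30 FPKM (ERβKO), in replicate order, so the ranges were separate. Its log2 fold change was 0.83 (SE 0.18, adjusted p = 0.0452 by edgeR, Benjamini-Hochberg adjusted), and it was called in 10 of 22 alternative fits. When single ovaries were left out the log2 fold change lay between 0.73 and 0.93, and the call held without WT replicate 2 or WT replicate 3 and was lost without any other ovary. The transcripts of the pair share runs of at most 100 bases, and 6.5% of the 50-base windows and none of the 150-base windows of Aldh1a1 occur in Aldh1a7. The ratio of Aldh1a1 to Aldh1a7 on FPKM ran from 84.7 to 203 over the ovaries, lowest in WT replicate 5 and highest in ERβKO replicate 4. How reads that fit both genes were counted is not given in the sources used here, so the small count of Aldh1a7 is uncertain.

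Aldh1a2 (ENSMUSG00000013584, chromosome 9 from 71215789 to 71296243) encodes the retinaldehyde dehydrogenase that makes most embryonic retinoic acid. In WT replicates 1 to 5 it had 40.0, 37.3, 79.9, 24.7 and 27.2 FPKM, and in ERβKO replicates 1 to 4 it had 29.0, 36.3, 31.7 and 34.1 FPKM. WT replicate 3 stood far above all other ovaries, and the ERβKO values fell inside the WT range. Aldh1a2 had a log2 fold change of -0.38 (SE 0.30, adjusted p = 0.515 by edgeR, Benjamini-Hochberg adjusted), and the 95% interval ran from -0.96 to 0.20. Without WT replicate 3 it was -0.01.

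Aldh1a3 (ENSMUSG00000015134, chromosome 7 from 66390892 to 66427517), the third enzyme of the group, was low, with 2.84, 1.84, 2.64, 2.18 and 2.36 FPKM (WT) and 3.06, 2.80, 2.53 and 3.22 FPKM (ERβKO). The ERβKO ovaries tended to the top of a shared range, with 2 of 4 above the highest WT ovary. For Aldh1a3 the log2 fold change was 0.21 (SE 0.13) with an adjusted p of 0.382 by edgeR, Benjamini-Hochberg adjusted, and the two-sided exact permutation test gave p = 0.0794.

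Summed over the 3 dehydrogenases, the level was 453 to 663 FPKM in WT ovaries (median 619) and 793 to 1314 FPKM in ERβKO ovaries (median 1202). Aldh1a1 made up 86.7% to 94.3% of this sum in WT and 96.0% to 97.3% in ERβKO ovaries, and Aldh1a2 5.26% to 12.9% and 2.51% to 3.66%. The smallest WT share of Aldh1a1 belonged to WT replicate 3, the ovary with high Aldh1a2. Set against the reductase, the FPKM ratio of Aldh1a1 to Dhrs3 was 15.6 to 22.0 in WT and 21.1 to 38.5 in ERβKO ovaries, where ERβKO replicate 1 alone fell within the WT range.

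Crabp1 (ENSMUSG00000032291, chromosome 9 from 54764748 to 54773110) encodes a cytoplasmic retinoic acid binding protein. Its counts were small, between 9 and 59 per ovary. They corresponded to 0.945, 1.20, 0.520, 1.58 and 0.83 FPKM (WT) and 2.97, 1.64, 1.09 and 2.06 FPKM (ERβKO). Of the 4 ERβKO ovaries 3 were above the highest WT ovary, replicate 4, and ERβKO replicate 3 was not. The log2 fold change was 0.96 (SE 0.34), with an adjusted p of 0.155 by edgeR, Benjamini-Hochberg adjusted, 0.104 in DESeq2 and p = 0.0635 in the two-sided exact permutation test, so the difference was not past the threshold at this depth.

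Crabp2 (ENSMUSG00000004885, chromosome 3 from 87948666 to 87953376) encodes the binding protein that hands retinoic acid to its nuclear receptor. It had 9.16, 25.3, 13.8, 12.8 and 12.9 FPKM (WT) and 12.7, 8.78, 19.9 and 12.1 FPKM (ERβKO). WT replicate 2 was the highest of all ovaries and ERβKO replicate 2 the lowest, so the ranges overlapped almost wholly. Crabp2 had a log2 fold change of -0.16 (SE 0.29, 95% interval -0.74 to 0.41, adjusted p = 0.800 by edgeR, Benjamini-Hochberg adjusted), and it was 0.09 without WT replicate 2. With genotype means removed, Crabp2 followed the 4 smooth muscle markers (r = 0.82, Spearman correlation 0.67, and 0.87 without the 2 farthest of the 9 ovaries), whose sum was highest in WT replicate 2, at 751 FPKM, against 396 to 548 FPKM in the other WT ovaries and 453 to 518 FPKM in ERβKO ovaries. Smooth muscle was the list with the highest r of the 12 compared. The Sertoli markers had r = 0.45, and 0.89 without their 2 farthest ovaries. The part of any of these markers in the spread of Crabp2 was not tested. Crabp2 made up most of the Crabp RNA in both genotypes, and the share of Crabp1 was 3.63% to 11.0% in WT and 5.19% to 19% in ERβKO ovaries.

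Cyp26b1 (ENSMUSG00000063415, chromosome 6 from 84571414 to 84593908) encodes a hydroxylase that clears retinoic acid. It had the lowest mean level of the 9 genes, with 1.18, 1.35, 0.731, 0.875 and 0.554 FPKM (WT) and 1.12, 1.32, 1.10 and 1.49 FPKM (ERβKO). The ERβKO ovaries lay in the upper part of the WT range or just above it. Cyp26b1 had a log2 fold change of 0.40 (SE 0.24, adjusted p = 0.382 by edgeR, Benjamini-Hochberg adjusted), with a 95% interval from -0.07 to 0.87.

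**Figure D4:**
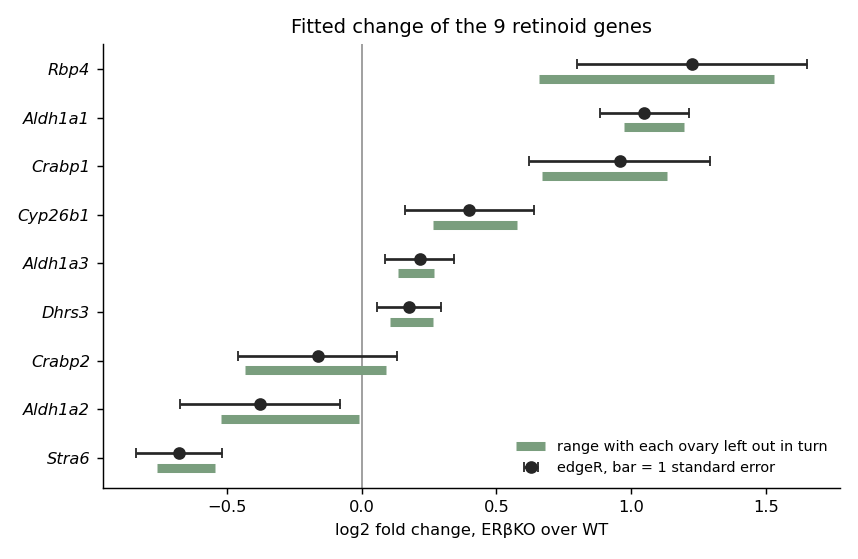
Fitted log2 fold change, ERβKO over WT, of the 9 genes (points, with 1 SE, the standard error), and the range of the same value with each of the 9 ovaries left out in turn (green bars). The range crosses 0 for Crabp2 and nearly reaches it for Aldh1a2, and it is widest for Rbp4, from 0.66 to 1.53.

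By mean FPKM the order in WT ovaries was Aldh1a1, Aldh1a2, Dhrs3, Crabp2, Stra6, Rbp4, Aldh1a3, Crabp1 and Cyp26b1. Neighbours whose ranges over the WT ovaries overlapped were Aldh1a2 and Dhrs3, Dhrs3 and Crabp2, Crabp2 and Stra6, and Crabp1 and Cyp26b1. In ERβKO ovaries the order was Aldh1a1, Dhrs3, Aldh1a2, Crabp2, Rbp4, Stra6, Aldh1a3, Crabp1 and Cyp26b1, so that Aldh1a2 and Dhrs3 changed places, as did Stra6 and Rbp4. There the ranges were separate between Aldh1a1 and Dhrs3, between Aldh1a2 and Crabp2 and between Stra6 and Aldh1a3, and overlapped between all other neighbours. Within genotypes, the pair of members with the highest Pearson correlation over the 9 ovaries was Aldh1a2 and Stra6 (r = 0.85, Spearman correlation 0.73), both highest in WT replicate 3, and r was 0.37 without the 2 ovaries farthest from the median of Aldh1a2. Stra6 and Dhrs3 had r = 0.53 (Spearman correlation 0.65), and 0.88 without the 2 ovaries farthest from the median of Stra6.

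The rest of the pathway was taken as 7 lists of named genes, 84 genes in all, of which 62 could be tested. Of the 62, 1 (Aldh1a7) was called higher with edgeR and none was called lower, beside the background of 1.72%, and DESeq2 called 5 (3 higher and 2 lower) beside its 4.6%. An unadjusted p under 0.05 was found with edgeR for 16 of the 62 and for 4 of the 9 members. Over all genes tested it was found for 3315 of 16722, the background for every such count given here. The median log2 fold change of the 62 was 0.05, with 35 fitted above 0 and 27 below. No oxidoreductase that interconverts retinol and retinaldehyde was called with edgeR among the 16 tested, 2 having an unadjusted p under 0.05. The most abundant was Adh1, an alcohol dehydrogenase, at 150 ± 31 FPKM (WT) and 135 ± 30 FPKM (ERβKO) (n = 5 and 4, ± SD), an adjusted p of 0.629 by edgeR, Benjamini-Hochberg adjusted. Rdh11, a retinal reductase, was lower with DESeq2 (log2 fold change -0.53, adjusted p = 0.0383, against 0.121 in edgeR). The other aldehyde dehydrogenases had 1 of 7 called, Aldh1a7, and 5 with an unadjusted p under 0.05 (Aldh1a7, Aldh2 and Aldh3a2 fitted higher, Aldh1b1 and Aldh1l2 lower). The abundant mitochondrial enzyme Aldh2 had 100.2 ± 19 and 138 ± 16 FPKM (adjusted p = 0.101 by edgeR, Benjamini-Hochberg adjusted).

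For storage and uptake, Lrat, which esterifies retinol, had 4.82, 9.33, 3.97, 3.52 and 2.38 FPKM (WT) and 7.71, 9.67, 11.3 and 9.88 FPKM (ERβKO). Only WT replicate 2 reached the ERβKO range. The log2 fold change of Lrat was 0.99 (SE 0.31), with an adjusted p of 0.122 by edgeR, Benjamini-Hochberg adjusted and 0.0297 in DESeq2. None of the 7 storage genes tested and none of the 8 carriers and uptake genes tested was called with edgeR (3 and 1 had an unadjusted p under 0.05). Cd36, a scavenger receptor and fatty acid transporter that fat cells also express, was called higher with DESeq2 (log2 fold change 0.90, adjusted p = 0.0161, against 0.101 in edgeR). Its level in ERβKO replicates 1 to 4 was 67.1, 40.9, 41.3 and 22.3 FPKM, the same order at its ends as the adipocyte markers.

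Among retinoic acid hydroxylases, Cyp26a1 was above Cyp26b1 in each ovary and varied widely, at 1.91, 14.6, 2.19, 3.88 and 2.30 FPKM (WT) and 5.94, 10.1, 14.2 and 10.5 FPKM (ERβKO). WT replicate 2 again stood with the ERβKO ovaries. The log2 fold change of Cyp26a1 was 1.04 (SE 0.56) with an adjusted p of 0.341 by edgeR, Benjamini-Hochberg adjusted, and a range of 0.00888 to 1.00 over alternative fits. Without WT replicate 2, Cyp26a1 was called, with a log2 fold change of 1.97. That fit called 919 genes in all, against 287 in the main fit. It leaves out the only WT ovary that made the ranges of Cyp26a1 overlap, so the call is no support for a difference. Of the 10 receptor genes tested none was called with edgeR, and 4 had an unadjusted p under 0.05. Rara had 8.40 ± 2.8 and 11.1 ± 1.5 FPKM and Rarg 10.9 ± 1.6 and 9.37 ± 1.3 FPKM (n = 5 and 4, ± SD). Rara too was called without WT replicate 2 (adjusted p = 0.0164, edgeR, Benjamini-Hochberg adjusted). Its ranges overlapped through that ovary alone, so this call is no support for a difference either. Rora, an orphan receptor named for its likeness to the retinoic acid receptors, was lower with DESeq2 (6.44 ± 2.3 and 3.23 ± 0.59 FPKM, log2 fold change -1.13, adjusted p = 0.00187, against 0.0691 in edgeR). Of 12 genes known to respond to retinoic acid none was called with edgeR (2 had an unadjusted p under 0.05) and 1, Lrat, was called with DESeq2, and their median log2 fold change was 0.10. Tgm2, a transglutaminase, had 44.5 ± 9.1 and 56.0 ± 5.6 FPKM (adjusted p = 0.256 by edgeR, Benjamini-Hochberg adjusted), while Stra8, the meiotic gene induced by retinoic acid, was below the filter. Rdh11, Cd36, Lrat, Rora, Aldh1l2 and Stra8, and the theca marker Insl3, were singled out after their values were seen.

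**Figure D5:**
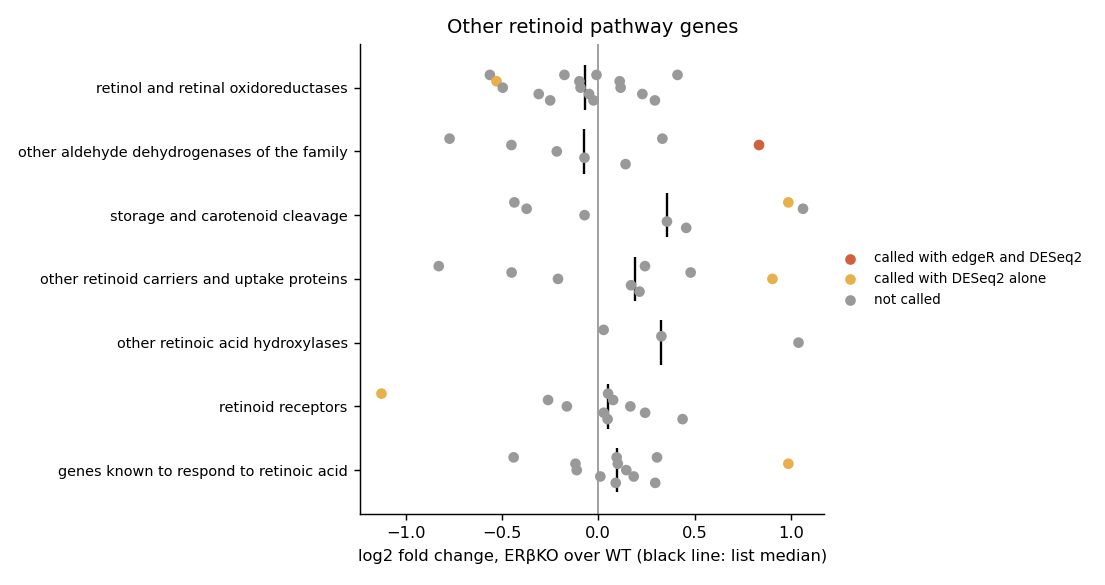
Log2 fold change, ERβKO over WT (horizontal axis), of the tested genes of 7 retinoid pathway lists, 1 point per gene, with the median of each list as a black line; red marks a gene called with edgeR and DESeq2, yellow one called with DESeq2 alone. Aldh1a7 is the red point, and the medians lie between -0.07 and 0.36.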

How the data were processed

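RNA of whole frozen ovaries was converted to poly-A selected, stranded libraries. According to the methods and labels the authors aligned reads to mm10 (GRCm38) with STAR and counted them per gene with FeatureCounts, which gave the deposited raw counts, and estimated the deposited FPKM values with StringTie. Tool versions for alignment and counting, and whether counting used strand, are not given in the sources used here. No exon of a member overlaps that of another gene on either strand in the annotation used here.

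Counts of 46078 genes were filtered with filterByExpr, scaled by TMM and tested for genotype with edgeR 4.0.16 (quasi-likelihood, Benjamini-Hochberg adjustment over 16722 genes). DESeq2 1.42.0, limma 3.58.1 on log2(FPKM + pseudocount of 1 or 0.1), other scalings and filters, a replicate block, marker covariates and leaving out each ovary were alternatives, 22 in all. The main test is edgeR's. The thresholds (adjusted p under 0.05, absolute log2 fold change over 0.4, mean above 1 FPKM) are those of the study, which applied them to DESeq2 results. Two-sided exact permutation tests used FPKM. The tests were checked on simulated counts. Correlations used log2 CPM with a prior count of 2 and genotype means removed, over genes above 5 FPKM for likeness, and are descriptions. Levels between genes are compared on FPKM only.

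Genes named are the members, Esr2, Aldh1a7, called pathway genes and, of each list, some of the 4 genes with the highest mean FPKM; genes named outside this rule are stated as such. Members and lists were chosen with earlier results of these data known. As the study describes them, the ovaries came from 5 WT and 4 ERβKO mice, and p-values measure the spread between these samples. Depth was 12353740 to 18717510 counts per ovary. Promoter windows came from RefSeq (GRCm38.p6).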

Additional observations from a re-analysis of the deposited data

Results flagged for a closer look

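One high ovary stood apart for Aldh1a2 and one for Crabp2. Aldh1a2 was at 79.9 FPKM in WT replicate 3, where the next WT ovary had 40.0 FPKM, a gap of 0.722 of the group's range against a critical value of 0.71 for 5 ovaries. Crabp2 was at 25.3 FPKM in WT replicate 2, where the next had 13.8 FPKM, a gap of 0.711 of the range. Of 18 groups tested 2 stood out, and chance gives about 1 in 20.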

How the results depend on the processing

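No member changed direction with a called value under any alternative. The count of members called, 1 in the main test, was 3 with DESeq2 and 2 without the filter on low counts. It was 0 among libraries numbered below 200, with limma on unfiltered FPKM, and with luteal or theca markers as covariate. With each ovary left out it ran from 0 (without ERβKO replicate 2 or 4) to 2 (without WT replicate 2, Aldh1a1 and Stra6). The count of other pathway genes called, 1 in the main test, was 5 with DESeq2, 2 without the filter, and 0 with the replicate block, with limma on unfiltered FPKM and with adipocyte, luteal or theca markers as covariate, and ran from 0 to 6 (without WT replicate 2) over left-out ovaries. Over all genes the main count of 287 was 803 with DESeq2, 155 with the replicate block, 20 and 8 with the luteal and theca covariates, 51 among libraries numbered below 200, 39 with limma on unfiltered FPKM, and 60 (without ERβKO replicate 2) to 919 (without WT replicate 2) over left-out ovaries. The causes were not tested.

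Same-numbered ovaries did not deviate together (correlations of 0.095, 0.13, -0.043 and -0.011), and no ERβKO ovary correlated best with the WT ovary of its own number. The replicate numbers thus gave no sign of a pairing, and the labels state none. Such correlations cannot exclude a weak shared effect. With the replicate block 1 member was called, Stra6 (adjusted p = 0.0481 in edgeR), while Aldh1a1 had an adjusted p of 0.0923.

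Of 197 fits of single members under alternatives, 181 kept direction and side of the threshold, 7 lost a call, 5 gained one and 4 moved from one side of 0 to the other without a call (Aldh1a2 and Cyp26b1 with the theca covariate, Crabp2 without WT replicate 2 and without ERβKO replicate 2). In the exact permutation test on FPKM, p fell to 0.0357 for Rbp4 without ERβKO replicate 4, to 0.0357 for Crabp1 without ERβKO replicate 3 and to 0.0286 for Dhrs3 without WT replicate 1. Each is the smallest p that the remaining ovaries allow. It was reached by leaving out the ovary whose level made the ranges overlap, so it is no support for a difference. Crabp1 had the fewest counts of the members, 9 to 59 per ovary.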

Other observations

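Dhrs3 and Aldh1a3 also varied with marker lists. The list named for each is the 1 of 12 with the highest Pearson correlation, a choice that favours high values. Other lists came close: without the 2 farthest ovaries Dhrs3 had 0.77 with theca and 0.79 with surface epithelium markers. Aldh1a3 had r = -0.75 with the surface epithelium markers. With genotype means removed, Dhrs3 followed the 5 macrophage markers (r = 0.80, Spearman correlation 0.73, and 0.69 without the 2 farthest of the 9 ovaries), and Aldh1a3 followed the 5 endothelial markers (r = 0.80, 0.67 and 0.73). The genes most like Aldh1a3 within genotypes included the ribosomal protein genes Rpl3 (r = 0.98) and Rpl4 (r = 0.97), those most like Stra6 were Wdr53 (r = 0.99), Gm11585 (r = 0.97) and Emp3 (r = 0.97), and those most like Dhrs3 were Vps51 (r = 0.96), Lpcat2 (r = 0.95) and Mtmr1 (r = 0.95). Each was the closest of 9431 genes over 9 ovaries, a choice that makes high values certain to be found.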
